A study of Mus musculus with 78 samples.

Results

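Zfp57, Trim28 and Dppa3 are the 3 genes described here, chosen by name from the 22563 genes that 3 deposited tables of mouse embryo expression share. All 3 were found in every table and all 3 passed the filter on low values, which kept 13493 genes. ZFP57 is a KRAB zinc finger protein that recognises a methylated TGCCGC sequence at imprinting control regions, the elements that carry a methylation mark from 1 parent only. It brings in TRIM28 (KAP1), a scaffold that gathers the histone methyltransferase SETDB1, HP1 proteins (genes Cbx1, Cbx3 and Cbx5) and DNMT1, and so keeps that mark through the wave of demethylation in the early embryo. DPPA3 (Stella, PGC7) is a maternal factor that binds chromatin and shields methylated DNA from oxidation by TET3, and it is also a marker of naive pluripotency and of primordial germ cells.

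The study followed DNA methylation, expression and chromatin folding from the blastocyst to gastrulation, and only its expression tables were used for these genes. All 30 RNA-seq libraries came from wild-type embryos of C57BL/6N x DBA/2N strain, 2 per group. In vivo the 11 tissues were inner cell mass and trophectoderm of E3.5, inner cell mass of E4.0, visceral endoderm and epiblast of both E5.5 and E6.5, and 4 tissues of E7.5: primitive streak, mesoderm, ectoderm and endoderm. The cultured groups were embryos flushed from the uterus and grown for 1 or 2 days, which carry a whole-embryo label although their protocol speaks of isolating inner cell mass, and epiblast and visceral endoderm dissected after 4 days of culture. The protocol puts flushing at E4.5, whereas the column names of the 1-day and 2-day libraries give E4.0, so the stage at which culture began is uncertain. E3.5, E4.0 and cultured embryos came from superovulated mothers. E5.5 to E7.5 tissues came from natural matings and their RNA went through a column, so stage and preparation cannot be told apart between E4.0 and E5.5. No label ties the 2 libraries of a group to different litters, and p-values measure the spread between these samples, which may be technical. In such bulk samples, fewer cells with a transcript and less transcript per cell cannot be told apart.

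Values are FPKM, fragments per kilobase of transcript scaled to the mapped total, which can be set side by side between genes. The files give no counts, so depth is unknown. Paired libraries correlated with r from 0.898 in embryos cultured for 2 days to 0.994 in E7.5 mesoderm. The E3.5 trophectoderm pair stood apart in vivo: of 2219 genes at 20 FPKM or more in its first library, 26 were under 1 FPKM in the second, against 0 to 7 in either direction for every other in vivo pair. Marker lists followed the labels in part. In vivo the sum of 6 visceral endoderm markers ran from 2958 to 6294 FPKM in visceral endoderm and E7.5 endoderm and reached at most 17.5 in E5.5 and E6.5 epiblast. In E7.5 endoderm that sum was 5591 and 5135 FPKM. Epiblast markers summed to 875 to 1047 FPKM in E5.5 and E6.5 epiblast and 45.7 to 106 in visceral endoderm. The 5 ectoderm markers went against the labels: they summed to 96.5 and 60 FPKM in E7.5 ectoderm and to 298 and 323 FPKM in E6.5 visceral endoderm, where Fgf5 was at 182 and 197 FPKM and Sox1 at 0. Embryos cultured for 1 or 2 days had trophectoderm marker sums of 1300 to 3542 FPKM and epiblast marker sums of 295 to 936 FPKM. The lowest epiblast sum, in the first 2-day library, was nearly all Utf1, at 287 FPKM. Pou5f1 was at 3.21 FPKM there, Nanog at 2.33, Sox2 at 2.11 and Tdgf1 at 0.115. A change was called where limma, fitted to log2(FPKM+1) of all 30 libraries, gave a Benjamini-Hochberg adjusted p under 0.05 and a log2 difference of at least 1. Differences are on the log2(FPKM+1) scale, which understates those of low genes. Tables were made separately, so each comparison stays within 1 table, while the spread was estimated from all 30 libraries.

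The regions just before the transcription starts show how unlike the members are in CpG content, the substrate of DNA methylation. RefSeq's promoter table of GRCm38.p6 held an entry for 2 of the 3 members, none for Dppa3. The expression files use mm9, so these sequences were matched by symbol only. Printed are the 250 bases before the start of Trim28 and before the most CpG-rich of the 3 listed starts of Zfp57, both 5′ to 3′ on the plus strand, with CpG in capitals.
Trim28, chr7:13023902-13024151: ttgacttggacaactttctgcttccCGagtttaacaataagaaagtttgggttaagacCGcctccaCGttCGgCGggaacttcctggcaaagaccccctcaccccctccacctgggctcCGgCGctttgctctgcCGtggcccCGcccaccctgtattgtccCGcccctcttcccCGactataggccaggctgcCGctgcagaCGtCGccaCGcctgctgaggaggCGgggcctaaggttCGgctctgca
Zfp57, chr17:37002275-37002524: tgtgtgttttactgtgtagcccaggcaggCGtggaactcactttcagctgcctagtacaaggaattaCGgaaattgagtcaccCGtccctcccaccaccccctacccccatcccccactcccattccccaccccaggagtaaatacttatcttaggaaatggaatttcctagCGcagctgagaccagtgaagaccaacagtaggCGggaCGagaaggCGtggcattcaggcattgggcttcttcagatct
The Trim28 window of 300 bases, from 250 before to 50 after the start, held 23 CpG, more than 78.5% of the 32851 promoters in the table. The 3 Zfp57 windows held 6, 9 and 4 CpG, where the median promoter held 7. The TGCCGC letters that ZFP57 recognises, searched on both strands, occurred once in the Trim28 window, in none of the Zfp57 windows and in 11.6% of all promoters. Among promoters of imprinted genes at domains bound by ZFP57, 12 of 46 (26.1%) held the letters, which was not particular to them: the share was 50% of 10 promoters of primordial germ cell genes, 30.8% of 13 of naive pluripotency genes, 25% of 24 of DNA methylation genes, 7.14% of 28 of KRAB silencing genes and 6.25% of 16 of oocyte genes. The letters include a CpG, and the 46 imprinted windows, from 29 genes, held a median of 13.5 CpG. The median was 20.5 for germ cell, 11 for naive, 26 for DNA methylation, 26.5 for KRAB silencing and 6 for oocyte genes. The part of CpG content in these shares was not tested. A match of letters is a description of the window and no evidence of binding.

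Zfp57 peaked in the inner cell mass of E4.0. It stood at 47.7 and 51.1 FPKM in the E3.5 inner cell mass libraries, at 178 and 179 FPKM in those of E4.0, and at 8.96 and 7.31 FPKM in E5.5 epiblast. Both E4.0 libraries lay above every other in vivo library, and at a mean of 178 FPKM the gene ranked 386 among 22563. In E5.5 visceral endoderm the values were 13.6 and 11.3 FPKM, again far below E4.0 with no overlap. Zfp57 fell 21.9-fold from E4.0 inner cell mass to E5.5 epiblast (log2 difference -4.30, SE 0.98, limma adjusted p = 0.00320), where 17.6% of all tested genes were called, 8.67% higher and 8.94% lower. From E4.0 inner cell mass to E5.5 visceral endoderm it fell 14.3-fold (log2 difference -3.74, SE 0.98, limma adjusted p = 0.00456), a comparison with 35.4% of all genes called, 9.66% higher and 25.7% lower. Both calls held when each of the libraries compared was left out.

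The rise of Zfp57 before that peak did not pass the test. E4.0 stood 3.61-fold above E3.5 inner cell mass with libraries apart (log2 difference 1.83, SE 0.98, limma adjusted p = 0.196), where 20.6% of genes were called, 15.8% higher and 4.8% lower. The spread that limma used for Zfp57 rests largely on 1 pair: in E3.5 trophectoderm the gene was at 46.7 FPKM in the first library and 0.696 FPKM in the second. With both trophectoderm libraries left out of the spread estimate, the SE of this difference was 0.641 and the limma adjusted p 0.0423. This alternative was chosen after seeing the data. Its spread still included the cultured pairs, such as 8.27 and 63.3 FPKM after 2 days. Fitted on the in vivo libraries alone, trophectoderm included, the difference had an SE of 0.861 and a limma adjusted p of 0.111. In the trophectoderm pair the epiblast markers summed to 27.3 FPKM in the first library and 83.7 in the second, and the trophectoderm markers to 1319 and 2994 FPKM. The authors' own value for the tissue was 30.6 FPKM. Inner cell mass against trophectoderm accordingly gave a wide difference for Zfp57 (log2 difference 2.49, 95% interval 0.44 to 4.53, limma adjusted p = 0.0827, 17.3% of genes called, 9.54% higher and 7.75% lower), and which trophectoderm library was used decided it: 4.89 with adjusted p = 2.34e-04 without the first, 0.079 with adjusted p = 1 without the second. Primitive endoderm markers also summed higher at E4.0, to 772 and 597 FPKM, than in E3.5 inner cell mass, to 197 and 230 FPKM. Sparc gave most of these sums, at 676 and 488 against 154 and 185 FPKM. Sox7 was at 61.4 and 74.7 FPKM against 0 in both E3.5 libraries. Gata6 was lower at E4.0, at 10.4 and 10.7 against 20.4 and 21.5 FPKM, as was Pdgfra, at 13.5 and 5.63 against 16.3 and 13.9. The part of these markers in the level of Zfp57 was not tested.

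After implantation Zfp57 was detected in every in vivo library, below the inner cell mass levels. Its mean was higher in visceral endoderm than in epiblast at E5.5 and E6.5, but neither difference was called. E6.5 epiblast held 4.38 and 3.90 FPKM and E6.5 visceral endoderm 20.7 and 22.0 FPKM, a 5.16-fold difference with no overlap that missed the threshold (log2 difference -2.12, SE 0.98, limma adjusted p = 0.148, 16.5% of genes called). Without the trophectoderm pair in the spread estimate its adjusted p was 0.0233. Ectoderm markers summed to 259 and 210 FPKM in this epiblast and to 298 and 323 FPKM in this visceral endoderm, and their part in the differences between the 2 tissues was not tested. At E5.5 the same 2 tissues differed by a log2 of -0.56 (95% interval -2.60 to 1.49). The change of this tissue difference between the stages did not pass its own test (log2 -1.57, SE 1.39, limma adjusted p = 0.529, with 6.07% of genes called).

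Among E7.5 tissues, ectoderm had the least Zfp57 in vivo, at 3.40 and 1.48 FPKM. Primitive streak held 11.9 and 13.5 FPKM and mesoderm 10.4 and 14.9 FPKM, so that these 2 overlapped and both lay above ectoderm. E7.5 endoderm stood between them at 4.77 and 5.85 FPKM, below the 20.7 and 22.0 FPKM of E6.5 visceral endoderm. None of these differences was called: ectoderm against mesoderm gave a log2 of -2.03 (limma adjusted p = 0.355) with 4.48% of genes called (1.39% higher and 3.09% lower), streak against E6.5 epiblast 1.42 (limma adjusted p = 0.734) with 3.74%, and endoderm against E6.5 visceral endoderm -1.83 (limma adjusted p = 0.528) with 4.26%. The other 3 comparisons that include an E7.5 tissue, ectoderm against E6.5 epiblast, mesoderm against streak and endoderm against mesoderm, had 1.07%, 3.38% and 10.2% of genes called and no member among them. Ordered by mean, 7 of the 10 pairs of neighbouring tissues had libraries apart. The 3 pairs that overlapped were E3.5 trophectoderm with E6.5 visceral endoderm, streak with mesoderm, and mesoderm with E5.5 visceral endoderm.

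**Figure D1:**
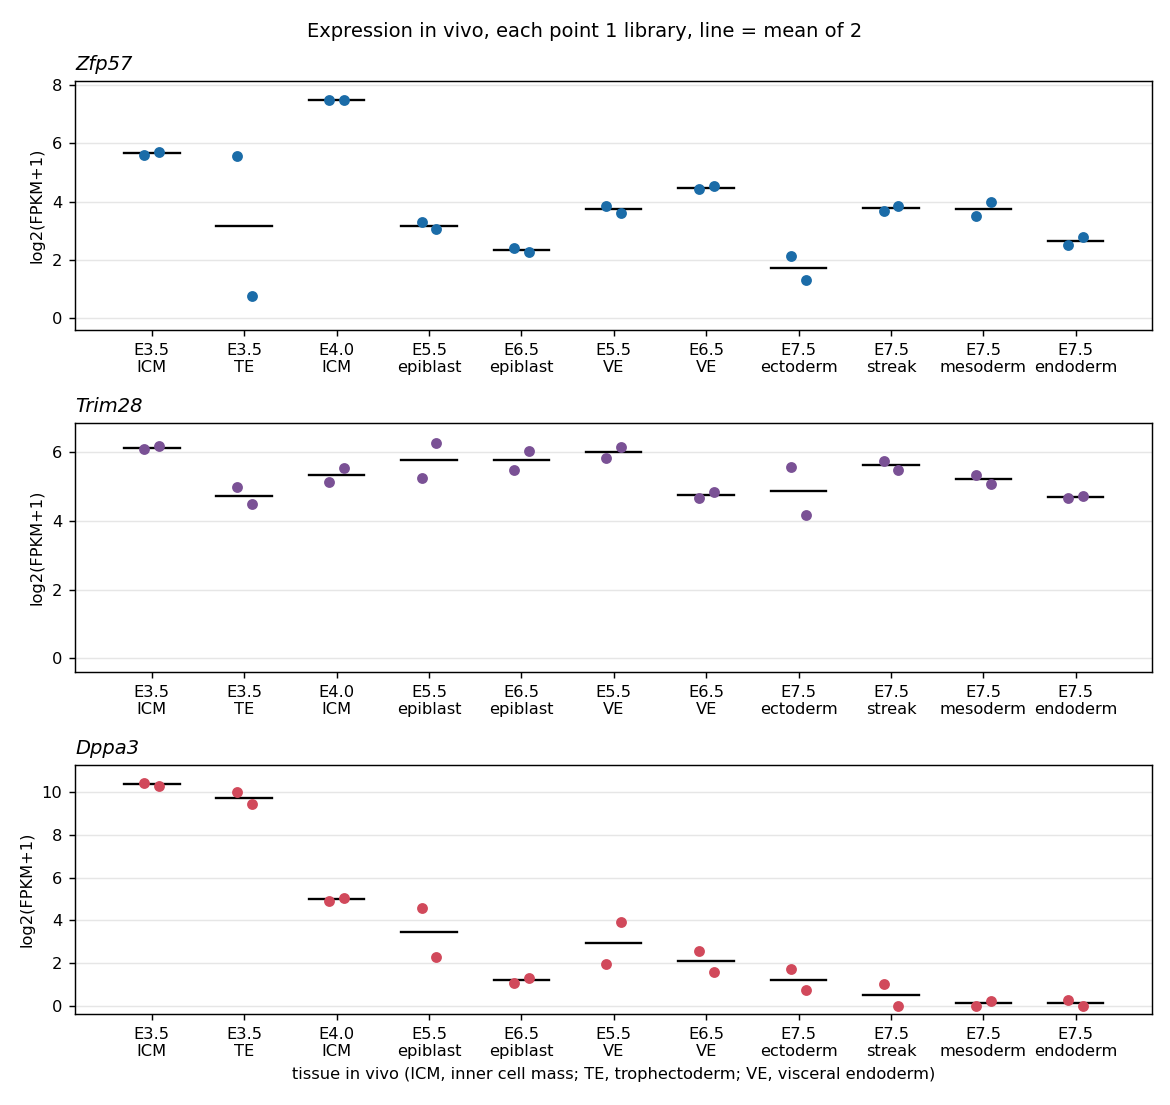
Expression of Zfp57, Trim28 and Dppa3 in the 11 tissues in vivo, as log2(FPKM+1) on the vertical axis, with 1 point per library and a line at the mean of the 2 log values. Zfp57 peaks in E4.0 inner cell mass with its trophectoderm libraries far apart, Trim28 stays between 17.0 and 75.7 FPKM, and Dppa3 descends from over 1000 FPKM in 3 of the 4 E3.5 libraries to 0 in 3 E7.5 libraries.

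Trim28 was detected in every library and varied less between tissues than the other two. Its 22 in vivo libraries ran from 17.0 to 75.7 FPKM with a median of 41.7, and the highest tissue mean was 2.79 times the lowest, against 73.1 times for Zfp57 and 15504 times for Dppa3, whose lowest mean is near 0. Ordered by mean, from 68.8 ± 3.56 FPKM in E3.5 inner cell mass to 24.6 ± 0.782 in E7.5 endoderm (SD, n = 2), all 10 pairs of neighbouring tissues overlapped. In E4.0 inner cell mass, where Zfp57 peaked, Trim28 was at 33.9 and 45.5 FPKM, below the 66.3 and 71.3 FPKM of E3.5. That difference was not called (log2 difference -0.79, SE 0.42, limma adjusted p = 0.192).

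Trim28 was called in 3 of the 16 comparisons. In E3.5 inner cell mass it was at 66.3 and 71.3 FPKM and in trophectoderm at 30.6 and 21.4 FPKM. The libraries did not overlap, and Trim28 was 2.65-fold higher in inner cell mass (log2 difference 1.39, SE 0.42, limma adjusted p = 0.0230). The call was lost without either inner cell mass library (adjusted p = 0.0928 and 0.122) and without the second trophectoderm library (0.131). In visceral endoderm Trim28 fell 2.41-fold between E5.5, at 55.6 and 69.8 FPKM, and E6.5, at 24.3 and 27.6 FPKM (log2 difference -1.23, SE 0.42, limma adjusted p = 0.0307), where 27.2% of genes were called. Most of those, 24.7% of all genes, rose, while 2.49% fell, and the median gene stood 0.50 higher at E6.5. This call was lost without any 1 of the 4 libraries (adjusted p from 0.0799 to 0.143) and without the filter on low values (0.0668). After quantile normalization, which removes that shift, the log2 difference was -2.24 with adjusted p = 6.82e-04.

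E6.5 epiblast had 43.9 and 63.9 FPKM of Trim28, above both visceral endoderm libraries of its stage (log2 difference 1.00, SE 0.42, limma adjusted p = 0.108). At E5.5 epiblast, at 37.2 and 75.7 FPKM, overlapped visceral endoderm (log2 difference -0.23, 95% interval -1.10 to 0.65), where 36.7% of genes were called, 27.1% higher in epiblast and 9.6% lower. The test of the change between stages gave a log2 of 1.23 (SE 0.60, limma adjusted p = 0.211). From E5.5 to E6.5 epiblast the log2 difference of Trim28 had a 95% interval of -0.88 to 0.87, in a comparison where 0.978% of genes were called. At E7.5 the ectoderm pair spread from 17.0 to 46.1 FPKM and overlapped every other E7.5 tissue. Trim28 was not called in the 3 pairs of E7.5 tissues compared. Streak, at 52.5 and 43.7 FPKM, lay above endoderm, at 24.1 and 25.2 FPKM, a pair that was not tested.

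Dppa3 traced a descent from the blastocyst onward. E3.5 inner cell mass held 1390 and 1259 FPKM and trophectoderm 1027 and 709 FPKM, which placed the gene 12th and 39th among 22563. The 2 tissues of the blastocyst did not overlap, yet the difference was not called (log2 difference 0.63, 95% interval -0.74 to 2.00, limma adjusted p = 0.606). Epiblast markers were much lower in those trophectoderm libraries, at 27.3 and 83.7 FPKM in sum against 941 and 952 FPKM in inner cell mass. At E4.0 Dppa3 was at 29.5 and 32.1 FPKM, 43.0-fold below E3.5 inner cell mass (log2 difference -5.38, SE 0.66, limma adjusted p = 5.83e-06). That fall was called under every alternative and without each library in turn.

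In E5.5 tissues the Dppa3 libraries disagreed within pairs. Epiblast held 22.8 and 3.93 FPKM, and visceral endoderm 2.82 and 14.1 FPKM, so that the 2 tissues overlapped and both lay below E4.0. Dppa3 fell 3.63-fold from E4.0 inner cell mass to E5.5 visceral endoderm (log2 difference -2.06, SE 0.66, limma adjusted p = 0.0163). The call was lost without the first visceral endoderm library (adjusted p = 0.307) and without either E4.0 library (0.0561 and 0.0771), and with a pseudocount of 0.1 in place of 1 (0.148). The visceral endoderm library with more Dppa3 also had the larger sum of epiblast markers, 94.1 against 45.7 FPKM. Nearly all of it was Utf1, at 93.5 against 44.8 FPKM. Pou5f1 was at 0.490 against 0.277 FPKM, Tdgf1 at 0.130 against 0, Sox2 at 0 against 0.588 and Nanog at 0 in both. The sum of extraembryonic ectoderm markers was 42.9 against 4.58 FPKM, mostly Rhox6, at 39.6 against 4.10 FPKM. Elf5 and Wnt7b were at 0 in both libraries. The part of these markers in the level of Dppa3 was not tested. In epiblast the fall from E4.0 was not called (log2 difference -1.55, limma adjusted p = 0.106), and its size depended on the E5.5 library used: -2.69 with adjusted p = 0.0130 without the first, -0.41 with adjusted p = 0.802 without the second.

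From E6.5 on Dppa3 was near the lower end of the scale. E6.5 epiblast had 1.11 and 1.48 FPKM and E6.5 visceral endoderm 4.92 and 2.00 FPKM, apart but not called (log2 difference -0.88, limma adjusted p = 0.416). E7.5 ectoderm held 2.29 and 0.659 FPKM, and primitive streak 1.02 FPKM in the first library and 0 in the second. Mesoderm was listed at 0 and 0.171 FPKM, and endoderm at 0.206 and 0. Between E5.5 and E6.5 epiblast Dppa3 gave a log2 difference of -2.24 (SE 0.66, limma adjusted p = 0.141), which was -3.38 with adjusted p = 0.0458 without the second E5.5 epiblast library and -1.11 with adjusted p = 0.613 without the first. Of the 10 neighbouring pairs in the order of tissues 4 were apart, of which 3 lay at the top, from E3.5 inner cell mass through trophectoderm and E4.0 inner cell mass to E5.5 epiblast. The fourth was E6.5 epiblast over primitive streak. A processed copy of the gene, Dppa3-ps, is annotated on chromosome X and absent from the tables used here, so how its reads were assigned is not known.

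**Figure D2:**
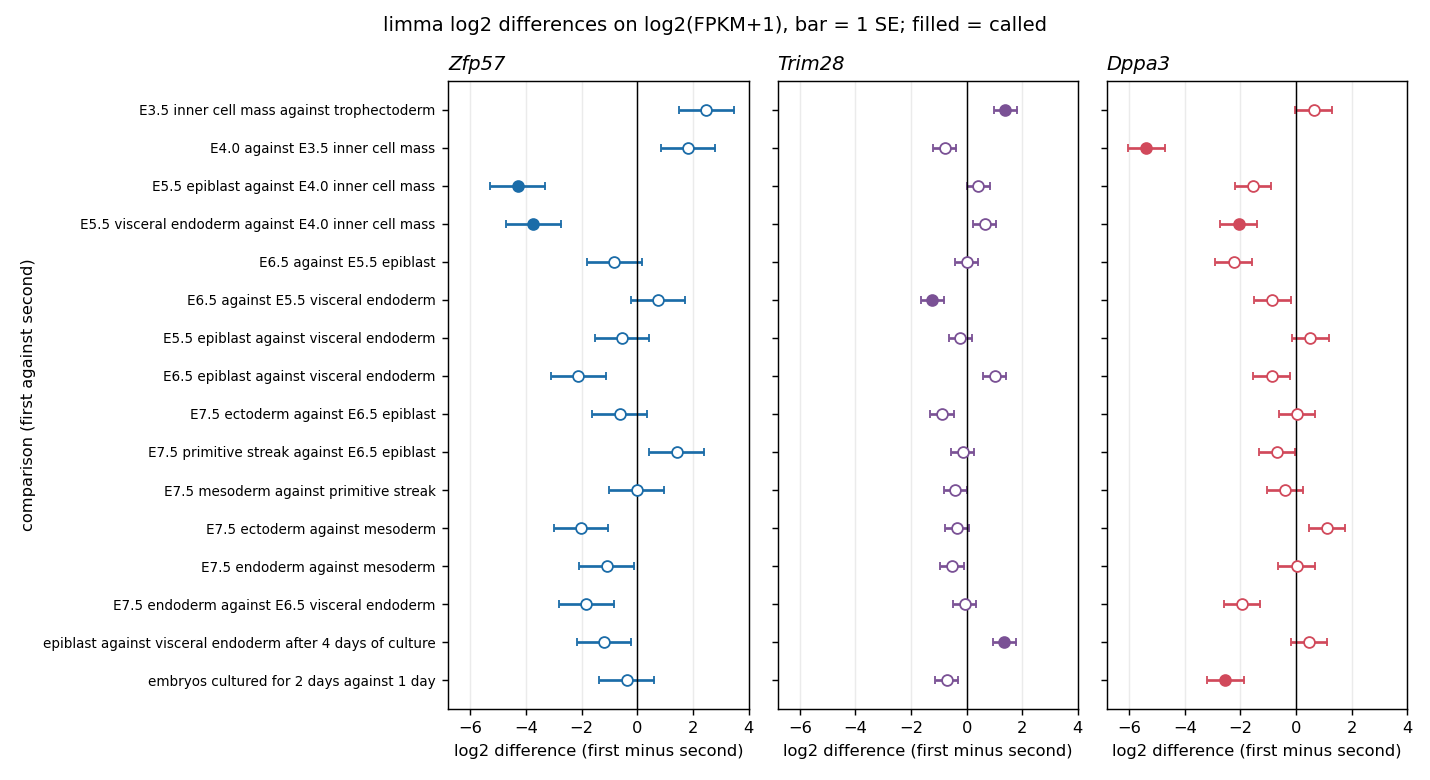
Differences of the 3 genes in the 16 comparisons, as limma log2 differences on the log2(FPKM+1) scale with bars of 1 SE. Filled points are called. Of 48 points 8 are filled, with Zfp57 lower at E5.5 than at E4.0 and Dppa3 lower at E4.0 than at E3.5 the farthest from 0.

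Counted over the 16 comparisons, Zfp57 was called lower in 2 and higher in 0, Trim28 higher in 2 and lower in 1, and Dppa3 lower in 3 and higher in 0. No comparison called all 3. From E4.0 inner cell mass to E5.5 visceral endoderm Zfp57 and Dppa3 both fell while Trim28 did not (log2 difference 0.65, limma adjusted p = 0.234). After quantile normalization, which moves the median of all genes from -0.31 to -0.02, Trim28 was called higher there (1.39, adjusted p = 0.00594). Across the 11 tissue means of log2(FPKM+1), as a description over points from 1 set of libraries, the members followed each other loosely, with r of 0.44 for Zfp57 with Dppa3, 0.26 for Zfp57 with Trim28 and 0.21 for Trim28 with Dppa3.

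In culture Dppa3 fell between 1 day, at 26.5 and 13.8 FPKM, and 2 days, at 3.30 and 1.78 FPKM. The pairs did not overlap, and the fall of 7.94-fold was called (log2 difference -2.55, SE 0.66, limma adjusted p = 0.0215), where 6.46% of genes were, 4.08% higher and 2.37% lower. It was lost without the first 1-day library or the second 2-day library. It was also lost with a pseudocount of 0.1 (limma adjusted p = 0.156) and without the filter on low values (0.0584). With each table fitted on its own it was lost too (0.966), but there 0 of 9924 genes were called. Of 12 primordial germ cell genes tested, 1 (8.33%) rose and 2 (16.7%) fell in the same comparison, against 4.08% and 2.37% of all genes, and without the second 2-day library 6 were called. The median of the list was -0.99. Stk31, a germ-cell kinase gene, fell from 15.5 ± 6.12 to 2.01 ± 1.45 FPKM (SD, n = 2).

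In FPKM, Zfp57 and Trim28 differed more within these pairs than between the means of the days. Zfp57 was at 55.1 and 17.1 FPKM after 1 day and at 8.27 and 63.3 FPKM after 2 days. Trim28 was at 151 and 96.5 FPKM after 1 day and 50.3 and 106 after 2 days. Both genes overlapped between the days, with intervals of -2.43 to 1.66 and -1.60 to 0.16 for their log2 differences. The first 2-day library had a sum of epiblast markers of 295 FPKM and of trophectoderm markers of 3542 FPKM, against 892 and 1537 FPKM in the second, and it was also the one with less Zfp57 and Trim28. The trophectoderm markers did not all go 1 way. Krt18 (1779 against 630 FPKM), Krt8 (1006 against 190), Tfap2c (423 against 182) and Elf5 (105 against 60.0) were higher in the first library. Gata3 (225 against 467 FPKM) and Cdx2 (3.47 against 8.43) were lower in it. Whether the share of tissues accounts for the levels of Zfp57 and Trim28 was not tested.

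After 4 days of culture Trim28 was higher in epiblast. Epiblast held 196 and 173 FPKM and visceral endoderm 93.7 and 54.5 FPKM, with no overlap and a 2.49-fold higher level in epiblast (log2 difference 1.35, SE 0.42, limma adjusted p = 0.0198), in a comparison with 24.5% of genes called, 10.8% higher in epiblast and 13.6% lower. The call was lost without either epiblast library (adjusted p = 0.110 and 0.0616) and without the second visceral endoderm library (0.197). Zfp57 leaned the other way, at 5.53 and 4.83 FPKM in epiblast and 23.4 and 7.20 in visceral endoderm (log2 difference -1.20, 95% interval -3.24 to 0.85, limma adjusted p = 0.399). Dppa3 was at 0 and 1.48 FPKM in epiblast and 0.293 and 0 in visceral endoderm. The visceral endoderm libraries differed in primitive streak markers, which summed to 348 and 34.6 FPKM, and in ectoderm markers, which summed to 241 and 13.1 FPKM, and the first of them also had more Zfp57 and Trim28. Their part in these differences was not tested. By mean, Zfp57 was higher in visceral endoderm and Trim28 in epiblast, as at E6.5 in vivo.

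**Figure D3:**
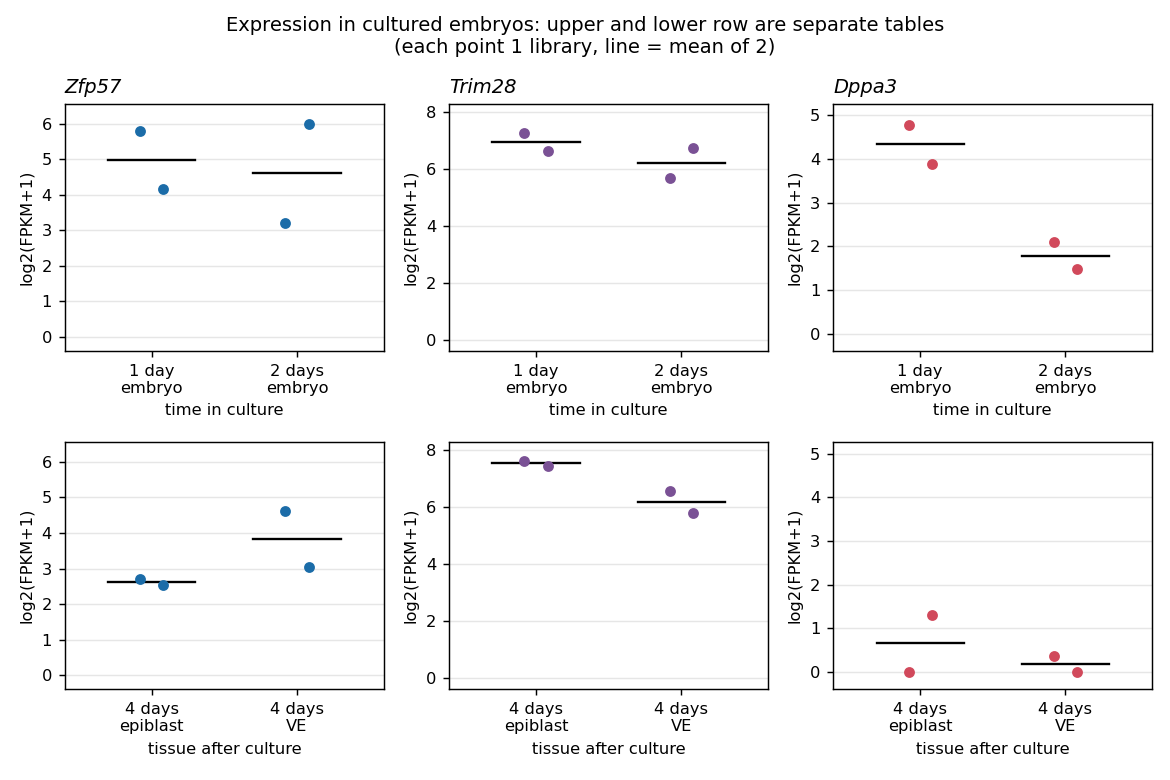
Expression of the 3 genes in cultured embryos as log2(FPKM+1), with 1 point per library and a line at the mean of the 2 log values. The upper row shows embryos after 1 and 2 days and the lower row epiblast and visceral endoderm (VE) after 4 days, from separate tables. Dppa3 is lower at 2 days, and Trim28 is higher in epiblast at 4 days.

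Genes for the proteins that work with TRIM28 were taken from a list of 21 that holds neither Trim28 nor Zfp57. Of these 21 genes of the KRAB silencing machinery, 7 (33.3%) rose and 0 fell from E3.5 to E4.0 inner cell mass, where 15.8% of all genes rose, with a median log2 difference of 0.71 against 0.27 over all genes. Setdb1 rose from 7.77 and 7.07 to 15.3 and 21.9 FPKM (log2 difference 1.20, limma adjusted p = 0.00632). The zinc finger genes Zfp568 (log2 difference 1.83) and Zfp809 (2.27) and the histone chaperone gene Daxx (1.64) rose too. Zfp445, whose protein also protects imprints, rose from 2.16 and 2.10 FPKM at E3.5 through 4.91 and 6.10 at E4.0 to 13.4 and 13 in E5.5 epiblast, and was called higher at both steps. Its highest tissue mean was 14.3 FPKM in E6.5 epiblast, where Zfp57 averaged 4.14. The count of 7 was 3 without the second E4.0 or the second E3.5 library and 4 without the first E3.5 library, and after quantile normalization it was 4.

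From E4.0 inner cell mass to E5.5 epiblast 5 machinery genes (23.8%) rose and 0 fell, where 8.67% of all genes rose and 8.94% fell, with a median log2 difference of 0.44 against 0.05 over all genes. Among them was Cbx1, for an HP1 protein, from 39.2 and 46.2 to 123 and 102 FPKM (log2 difference 1.37, limma adjusted p = 0.0186). Ehmt1 (1.3) and Chd4 (1.40), for a histone methyltransferase and a remodelling ATPase, rose as well. The count of 5 was 2 without the first E5.5 epiblast library and 3 without the second or either E4.0 library. The naive pluripotency genes fell at this step, 13 of 18 (72.2%) with 0 rising and a median log2 difference of -3.49, as Zfp57 did. Prdm14 (log2 difference -4.29), Zfp42 (-3.76) and Tfcp2l1 (-4.92), all regulators of the naive state, led that list.

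At E5.5 much of the silencing machinery was lower in visceral endoderm. Of the 21 genes 12 (57.1%) were higher in epiblast than in visceral endoderm and 0 lower, with a median log2 difference of 1.10 against 0.36 over all genes and 27.1% of all genes called higher. Setdb1 was at 24.9 and 24.2 FPKM in epiblast and 5.41 and 6.48 in visceral endoderm (log2 difference 1.88, limma adjusted p = 5.6e-05). Cbx1 (2.32), Cbx5 (1.10), Cbx3 (1.18), Zfp445 (1.16) and Morc3 (2.47), for a chromatin ATPase, were also higher in epiblast. Trim28 was not called between these tissues and had a mean of 62.7 ± 10.0 FPKM in that visceral endoderm (SD, n = 2), the second highest of the 11 tissues. After quantile normalization 7 of the 21 were called, while the number called among all genes went from 4958 to 4639. From E4.0 inner cell mass to that tissue 8 machinery genes (38.1%) fell and 3 (14.3%) rose, where 25.7% of all genes fell and 9.66% rose, and all 18 naive genes fell. Setdb1 (log2 difference -1.48), Morc3 (-2.71) and Atrx (-1.73), which encodes a partner of DAXX, were among those that fell. The machinery had a median log2 difference of -0.83 and the naive genes of -3.49, against -0.31 over all genes. The machinery count of 11 was 6 without the first visceral endoderm or the second E4.0 library.

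From E5.5 to E6.5 in visceral endoderm 6 machinery genes (28.6%) rose and 0 fell. That share is near the 24.7% of all genes that rose, and the median log2 difference was 0.73 against 0.50 over all genes. Setdb1 reached 15.4 and 17.8 FPKM (log2 difference 1.34, limma adjusted p = 0.00252), and Cbx1 (1.58) and Daxx (1.51) rose with it. The count was 2 without the first E5.5 library and 3 without the first E6.5 library, and after quantile normalization it was 2. At E3.5 3 machinery genes (14.3%) were higher in inner cell mass than in trophectoderm and 2 (9.52%) lower, near the 9.54% and 7.75% of all genes. Cbx3 was higher, at 241 and 224 against 73.9 and 61.9 FPKM, as Trim28 was. Ehmt2, a histone methyltransferase gene, was lower, at 2.31 and 3.12 against 7.5 and 6.5 FPKM. After 4 days of culture 6 machinery genes (28.6%) were higher in epiblast and 1 (4.76%) lower, against 10.8% and 13.6% of all genes. Zfp932 (log2 difference 1.48), Suv39h2 (1.64) and Hdac1 (1.29) led the former, and Cbx1 and Cbx3 were among them. Median log2 differences were 0.17 at E3.5 and 0.85 in culture, both against 0.02 over all genes. The E3.5 count of 5 was 2 without either inner cell mass library or the first trophectoderm library, and the culture count of 7 was 4 without the first epiblast or the second visceral endoderm library.

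**Figure D4:**
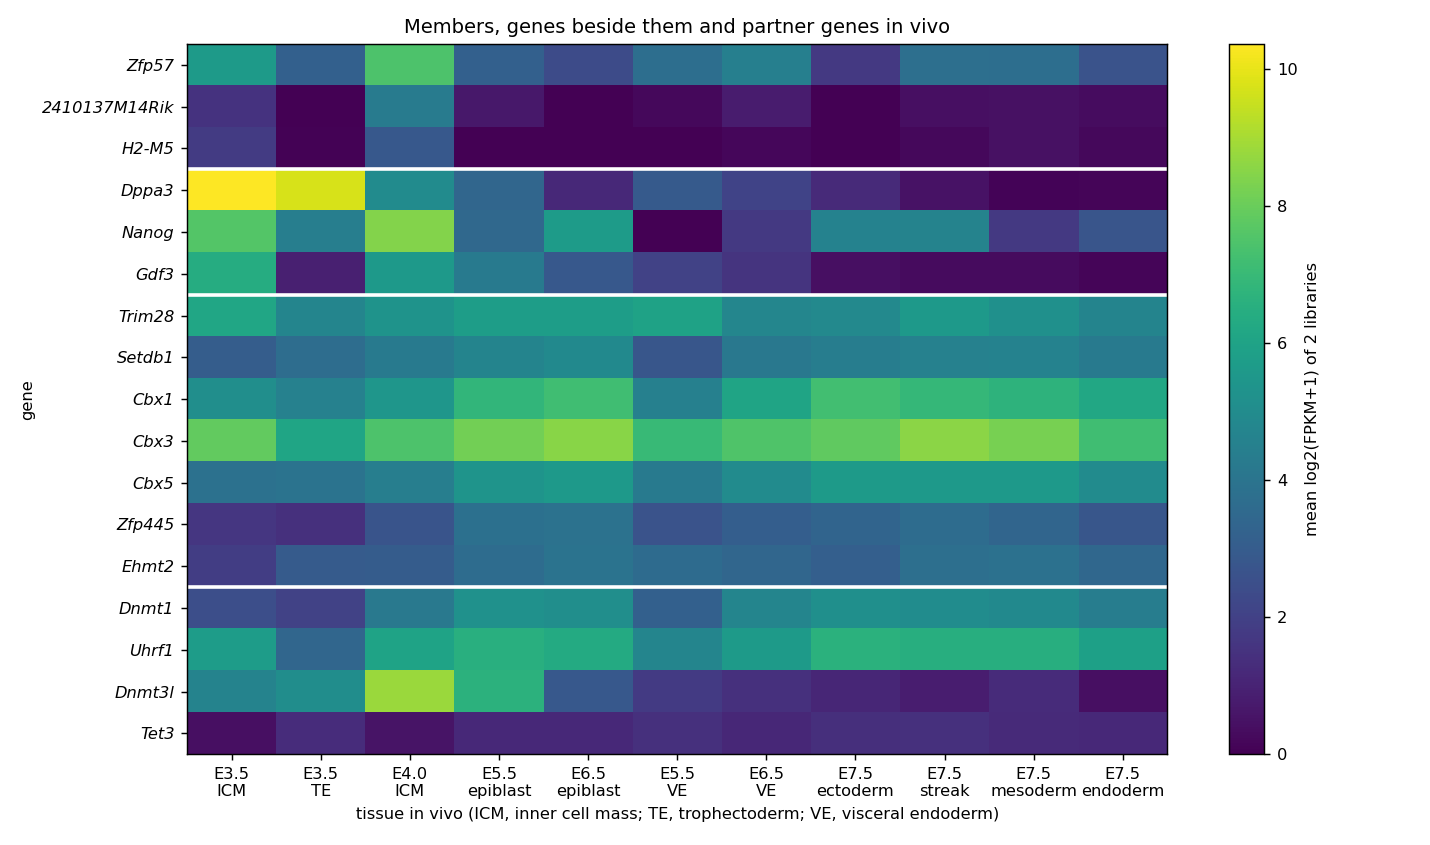
Mean log2(FPKM+1) of 2 libraries for the members, the genes beside Zfp57 and Dppa3, and partner genes in the 11 tissues in vivo. Lines part the rows into Zfp57 and its neighbours, Dppa3 and its neighbours, Trim28 with its silencing partners, and genes of DNA methylation. Setdb1 and Cbx1 are low in E5.5 visceral endoderm (VE), where Trim28 is not, and Dnmt3l shares the E4.0 peak of Zfp57.

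Genes that write, copy or remove DNA methylation were called at shares near those of all genes at several steps, with large changes in single genes. From E3.5 to E4.0 inner cell mass 4 of 21 (19%) rose, where 15.8% of all genes rose, and 0 fell, with a median log2 difference of 0.41 against 0.27 over all genes. Dnmt3l, the cofactor of the de novo methyltransferases, rose from 26.4 and 22.3 to 484 and 406 FPKM (log2 difference 4.14, limma adjusted p = 2.14e-04). Dnmt1, which copies methylation onto new DNA, rose from 4.22 and 5.16 to 18.6 and 16 FPKM (log2 difference 1.69, limma adjusted p = 1.47e-04). Dnmt3l then fell in E5.5 epiblast to 71.1 and 138 FPKM and in E5.5 visceral endoderm to 0.601 and 6.14 FPKM, so that it peaked in the same tissue as Zfp57. The count of 4 was 2 without either E3.5 library or the second E4.0 library.

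From E4.0 inner cell mass to E5.5 epiblast 2 methylation genes rose, 2 fell and 17 were not called, so that 19% were called against 17.6% of all genes. Dnmt3b, a de novo methyltransferase, went from 15.9 and 16.2 to 153 and 193 FPKM, and Tet2, an oxidase of methylated cytosine, from 11.6 and 10.7 to 0.162 and 0.0761 FPKM. In E5.5 visceral endoderm 7 (33.3%) were lower than in E4.0 inner cell mass and 3 (14.3%) higher, against 25.7% and 9.66% of all genes. Epiblast of E5.5 exceeded visceral endoderm at 7 of the 21 (33.3%) and was lower at 2 (9.52%), against 27.1% and 9.6% of all genes. Dnmt1 was at 40.3 and 34.8 FPKM in epiblast against 9.18 and 6.96 in visceral endoderm, and its recruiter Uhrf1 at 99.0 and 87.5 against 26.9 and 23.8 FPKM. After 4 days of culture 7 (33.3%) were higher in epiblast and 1 lower, against 10.8% and 13.6% of all genes, led by Uhrf1 (log2 difference 1.62), Dnmt3b (2.64) and Ctcf (1.23). Median log2 differences of the list were 0.38 from E4.0 to E5.5 epiblast, -0.63 to visceral endoderm, 0.72 between the E5.5 tissues and 0.74 in culture, against 0.05, -0.31, 0.36 and 0.02 over all genes. The first of these counts, 4 called in all, was 2 without the first E5.5 epiblast or the second E4.0 library, and the culture count of 8 was 4 or 3 without the first or second epiblast library. Tet3, the oxidase that DPPA3 counters in the zygote, was low throughout, from 0.234 FPKM in an E4.0 library to 2.26 in a trophectoderm library in vivo. It was called in 0 of the 16 comparisons.

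For imprinted genes at domains bound by ZFP57, calls are given beside those of all genes. Of 34 listed, 33 were in the tables and 30 were tested, which left out Usp29, Zim1, Mirg and Rasgrf1. From E4.0 inner cell mass, where Zfp57 was highest, to E5.5 epiblast 8 of 30 (26.7%) rose and 2 (6.67%) fell, against 8.67% and 8.94% of all genes. To E5.5 visceral endoderm 11 (36.7%) rose and 3 (10%) fell, against 9.66% and 25.7%. The non-coding H19 went from 0.223 ± 0.315 FPKM in E4.0 inner cell mass to 297 ± 19.3 in E5.5 visceral endoderm (log2 difference 7.95, limma adjusted p = 1.36e-09), and Meg3 rose there as well (5.65). The paternally expressed Snrpn was at 211 ± 13 FPKM in E5.5 epiblast and 1.66 ± 1.09 in visceral endoderm (log2 difference 6.38, limma adjusted p = 5.8e-07). Between these E5.5 tissues 6 imprinted genes (20%) were higher in epiblast and 11 (36.7%) in visceral endoderm, against 27.1% and 9.6% of all genes. At E7.5 all 10 (33.3%) that were called between ectoderm and mesoderm were lower in ectoderm, against 3.09% of all genes, Igf2 (log2 difference -3.30), H19 (-3.55) and Airn (-1.38) first. Airn overlaps Igf2r in antisense, and without stated strand-specific counting their reads cannot be told apart. Median log2 differences of the list were 0.50 to E5.5 epiblast, 0.57 to E5.5 visceral endoderm, -0.59 for epiblast against visceral endoderm and -0.82 for ectoderm against mesoderm, against 0.05, -0.31, 0.36 and -0.18 over all genes. The E5.5 count of 17 was 11 without the first visceral endoderm library, and the E7.5 count of 10 was 5 without the second ectoderm library and 6 without either mesoderm library, and 4 with a pseudocount of 0.1. The tables sum both parental alleles, so they do not tell whether imprinting itself was kept.

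Oocyte and maternal-effect genes were compared over the step at which Dppa3 fell. Bulk values do not tell transcripts inherited from the oocyte from those made by the embryo. Of 13 oocyte and maternal-effect genes tested, 1 (7.69%) was called from E3.5 to E4.0 inner cell mass, below the 20.6% of all genes. This was Khdc3, of the subcortical maternal complex, which fell from 735 ± 53.4 to 32.9 ± 4.71 FPKM (log2 difference -4.44, limma adjusted p = 1.19e-05). Of the 18 naive pluripotency genes 4 (22.2%) fell and 1 (5.56%) rose at that step, against 4.8% and 15.8% of all genes. Spic (log2 difference -3.85) and Dppa4 (-2.18) fell with Dppa3, and Nr0b1 rose (5.61). In E3.5 trophectoderm, where Dppa3 was abundant, 10 naive genes (55.6%) were lower than in inner cell mass and 1 was higher, against 9.54% and 7.75% of all genes. The oocyte list had a median log2 difference of -0.33 and the naive list of -0.27 at E4.0, against 0.27 over all genes, and the naive list one of 2.27 between the E3.5 tissues, against 0.02. The count of 5 at E4.0 was 3 without the first E4.0 or either E3.5 library, and that of 11 at E3.5 was 7 or 6 without the first or second inner cell mass library.

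The genes beside Dppa3 on its chromosome belong to the same pluripotency cluster. Gdf3, a ligand of the TGF-beta family on one side, was at 83.0 and 86.5 FPKM in E3.5 inner cell mass and at 0.997 and 0.801 FPKM in trophectoderm (log2 difference 5.5, limma adjusted p = 3.75e-05). Nanog, the homeobox factor on the other side, was at 205 and 185 against 10.4 and 39.4 FPKM (log2 difference 3.19, limma adjusted p = 0.0107). The log2 difference of Dppa3 between these tissues, 0.63, was smaller, which was not tested between genes. In E4.0 inner cell mass Nanog was at 385 and 322 FPKM, above both E3.5 libraries, and Gdf3 at 45.4 and 47.0 FPKM, while Dppa3 had fallen. In E6.5 epiblast Nanog was at 57.0 and 45.9 FPKM, and Dppa3 at 1.11 and 1.48 FPKM. The next genes out, Apobec1 and Slc2a3, were at most 0.357 FPKM and as high as 2018 FPKM in vivo.

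Zfp57 shared its peak with both genes listed before it in RefSeq. These were H2-M5, a class I gene of the major histocompatibility complex, and 2410137M14Rik. H2-M5 was at 8.34 and 4.54 FPKM in E4.0 inner cell mass and at most 2.78 FPKM in any other in vivo library. 2410137M14Rik was at 16.5 and 21.2 FPKM there and at most 2.47 FPKM in any other in vivo library. In culture 2410137M14Rik was at 8.43 FPKM in the second 2-day library and at 0 in the first and in both 1-day libraries. Mog and Gabbr1 on the other side stayed at or under 1.53 FPKM in vivo. Around Trim28, Chmp2a was at 33.7 FPKM or more and Zbtb45 at 3.74 FPKM or less in all in vivo libraries, and Ube2m stood at 42.2 and 42.5 FPKM in E5.5 visceral endoderm. An uncharacterised gene, Gm31649, overlaps Trim28 in RefSeq and is not in the tables used here. Without stated strand-specific counting, reads of the 2 cannot be told apart.

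Genes with the pattern most like each member were ranked by Pearson r over the 11 tissue means in vivo, among 6798 genes reaching a tissue mean of 10 FPKM. For Zfp57 the 5 closest were Fam159b (r = 0.927), the laminin gene Lama1 (0.920), Ddhd2 (0.901), Ankrd33b (0.893) and Slc13a5 (0.881), all highest in E4.0 inner cell mass. Lama1 averaged 46.4 FPKM there. For Dppa3 they were Nfyc (0.967), Trim43a (0.967), the ribosomal gene Rps29 (0.961), Sycn (0.961) and Sfn (0.959), highest in 1 of the 2 E3.5 tissues. For Trim28 the closest reached only 0.834 in the non-coding Dancr, followed by Kif2a (0.786), the histone demethylase gene Kdm1a (0.783), Pcgf6 (0.769) and Arglu1 (0.750), with peaks spread over E5.5 and E6.5 tissues. These are descriptions over 11 points that share libraries and preparation.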

How the data were processed

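RNA-seq of mouse embryos was analysed from the authors' deposited tables of FPKM per gene, made with TopHat2 2.0.11 and Cufflinks 2.0.2 on mm9, per the submitters' processing notes. Those FPKM values are scaled to library size and transcript length by the authors, and carry no counts, so depth is unknown. A further table with 1 FPKM value per tissue served only for the authors' trophectoderm value. Groups came from the sample labels, 2 libraries each. Of the in vivo rows, 27 whose symbols had turned into dates were left out, and values at or under 1e-06 were set to 0. A gene was tested if 2 or more of the 30 libraries reached 1 FPKM, which kept 13493 of 22563. limma 3.58.1 (R 4.3.3) was fitted with a mean-variance trend to log2(FPKM+1) of all 15 groups at once (15 residual degrees of freedom), with Benjamini-Hochberg adjustment over all tested genes in each of 16 comparisons. The 16 comparisons and 6 gene lists (KRAB silencing machinery, DNA methylation, imprinted genes, naive pluripotency, primordial germ cells, oocyte and maternal effect) and the members were chosen with earlier results of these data known. Genes named are the members, 12 partner genes wherever measured, up to 3 called genes per list and comparison by adjusted p, the 5 nearest patterns per member (passing over provisional symbols) and 2 neighbours on each side. Other list genes, Airn's partner Igf2r and gene examples outside that rule were chosen after their values were seen. The fit was tested on simulated data. Noise there was independent with 1 spread per gene, so uneven single pairs and shifts of all genes were not covered. Alternatives were a pseudocount of 0.1, no filter, quantile normalization, a replicate block, each table on its own and leaving out each library. Promoter letters and gene order came from RefSeq tables of GRCm38.p6, by symbol. Python 3.11.15 with pandas 2.3.3, numpy 2.4.6 and matplotlib 3.10.9 was used. The methylation table and samples of other assays were not analysed here.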

Additional observations from a re-analysis of the deposited data

How the results depend on the processing

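The falls of Zfp57 from E4.0 to both E5.5 tissues and of Dppa3 from E3.5 to E4.0 inner cell mass were called under every alternative run. With the replicate number as a block, 51 of 51 member results kept their direction and side of the threshold (Zfp57 in E3.5 inner cell mass against trophectoderm, 2.49, adjusted p = 0.0830). The labels do not say that the numbers pair the samples. Where a result below changed, the cause was not tested. Quantile normalization moved the median of all genes by more than 0.1 in several comparisons, such as from 0.50 to 0.05 between the visceral endoderm stages. It brought past the threshold Trim28 from E3.5 to E4.0 inner cell mass (-1.16), from E4.0 to E5.5 visceral endoderm (1.39) and in the change of the tissue difference between stages (1.99), and it turned uncalled differences of Zfp57 between visceral endoderm stages (-0.23) and of Dppa3 between E7.5 endoderm and mesoderm (-0.029). It changed the machinery counts to 4 from E3.5 to E4.0, 2 between visceral endoderm stages, 7 between E5.5 tissues and 12 after 4 days of culture. In the same order, the number called among all genes went from 2778 to 2366, 3670 to 1633, 4958 to 4639 and 3300 to 3605. Called genes between visceral endoderm stages went from 3334 higher and 336 lower to 610 higher and 1023 lower. A pseudocount of 0.1 lost Dppa3 at E5.5 visceral endoderm (-2.26) and in culture (-2.93), turned it between E7.5 ectoderm and E6.5 epiblast (-0.038), and left 4 imprinted genes at E7.5 and 3 naive genes at E4.0. Without the filter Trim28 between visceral endoderm stages (-1.23) and Dppa3 in culture (-2.55) were lost, and 2 and 5 DNA methylation genes remained called at E4.0 and after 4 days. With each table on its own Dppa3 in culture (-2.55) was lost, where 0 of 9924 genes were called. Zfp57 between E3.5 tissues (2.49, limma adjusted p = 0.0376) passed. With E3.5 trophectoderm left out of the spread, chosen after seeing the data, Zfp57 passed at E4.0 (1.83) and between E6.5 tissues (-2.12), and 2 oocyte genes were called at E4.0.

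Leaving out each library in turn gave ranges of log2 difference. The remaining library of such a group takes its spread from the other groups. For Zfp57 they were 0.079 to 4.89 between E3.5 tissues, -0.26 to 0.22 for mesoderm against streak and -1.78 to 1.01 between days of culture. For Trim28 they were 1.14 to 1.64 between E3.5 tissues, -0.077 to 0.93 from E4.0 to E5.5 epiblast, -0.51 to 0.50 between epiblast stages, -0.73 to 0.28 between E5.5 tissues, -1.39 to -1.07 between visceral endoderm stages, -0.41 to 0.12 for streak against E6.5 epiblast, -0.16 to 0.017 for E7.5 endoderm against E6.5 visceral endoderm, -1.04 to 0.35 for ectoderm against mesoderm and 0.97 to 1.74 after 4 days of culture. For Dppa3 they were -2.69 to -0.41 from E4.0 to E5.5 epiblast, -3.05 to -1.07 to E5.5 visceral endoderm, -3.38 to -1.11 between epiblast stages, -0.63 to 1.65 between E5.5 tissues, -1.85 to 0.14 between visceral endoderm stages, -0.46 to 0.52 for ectoderm against E6.5 epiblast, -0.90 to 0.11 for mesoderm against streak, -0.11 to 0.16 for endoderm against mesoderm, -0.19 to 1.13 after 4 days and -2.99 to -2.10 between days of culture. Of all such values for members, 178 kept direction and call, 15 lost a call, 3 gained one and 20 changed sign.

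List counts without 1 library, chosen after seeing the data, ranged as follows, with no share of all genes computed for these fits. Machinery counts were 2 to 5 between E3.5 tissues, 3 to 6 from E3.5 to E4.0, 2 to 3 to E5.5 epiblast, 6 to 10 to E5.5 visceral endoderm, 2 to 6 between visceral endoderm stages and 4 to 8 after 4 days. DNA methylation counts were 2 to 3 at E4.0, 2 to 4 to E5.5 epiblast and 3 to 7 after 4 days. Imprinted counts were 11 to 17 between E5.5 tissues and 5 to 9 at E7.5. Naive counts were 6 to 10 between E3.5 tissues and 3 to 4 at E4.0, and germ cell counts 2 to 6 in culture. With 2 libraries a group and no counts, differences of low genes such as Dppa3 after E5.5 are the least certain.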
